A study of Homo sapiens and Mus musculus with 47 samples.

Results

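The HOX cluster genes are the protein-coding homeobox genes that lie side by side in 4 clusters, A to D. They were taken from each count table as the entries annotated protein_coding whose name is HOX, a cluster letter and a paralog number, in either case. The rule found 40 entries among 57820 human genes (39 symbols, since HOXC4 is listed under both ENSG00000198353.6 and ENSG00000273266.1) and 39 among 55401 mouse genes. The rule reads names only and no measured value, although the gene family was picked with earlier results of these data known.

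HOX proteins are transcription factors that set positional identity along the body axis, and cells in culture keep the HOX pattern of the tissue they came from. The clusters are classic Polycomb targets: PRC2 places H3K27me3 over silent HOX genes, PRC1 binds that mark through CBX proteins, and trithorax-type methyltransferases place H3K4me3 at active ones. A cell line therefore commonly holds silent and transcribed HOX genes next to each other.

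Chrom-seq brings the peroxidase APEX2 to a histone mark through a reader domain, biotinylates RNA near it and sequences the recovered RNA. The series held 47 libraries, 30 of Chrom-seq and 17 of RNA-seq, in 16 groups, of which 15 had 3 libraries and 1 had 2. The comparisons asked which RNA is found near H3K4me3 (reader TAF3) or H3K27me3 (readers CBX7 and dPC), and how RNA levels differed with the CBX7 reader or with antisense oligonucleotides (ASOs) against 3 long noncoding RNAs. Total counts ran from 3941942 to 17558305 per library.

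All Chrom-seq cells, controls included, carried an scFv-APEX2 fusion driven by the chicken β-actin promoter and a 10×GCN4 epitope array expressed from a CMV promoter for 48 h, then took up 500 µM biotin-aniline for 30 min and 1 mM H2O2 for 1 min. The reader-free controls had the array with no reader. Readers came from mouse CBX7 and TAF3 and from the Drosophila Polycomb protein (dPC), were transiently overexpressed, and were placed in HEK293T (human embryonic kidney; TAF3, CBX7, dPC and a control titled for TAF3), HCT116 (human colorectal cancer; TAF3 and control), NIH3T3 (mouse embryonic fibroblast; TAF3 and control) and Neuro-2a (mouse neuroblastoma; TAF3 and control). HEK293T RNA-seq covered a CBX7 group with its control, and an NC ASO (control oligonucleotide) with ASOs against SETD5-AS1, LINC00641 and LINC00662. The methods give the RNA-seq control of CBX7 as untreated cells, so that comparison sets transfected against untreated HEK293T. The labels repeat the biotin-aniline and H2O2 text for every library, RNA-seq included, and the time the cells spent with an ASO before RNA-seq is not given in the sources used here. The labels do not say that replicates were separate cultures. The study's figure legends call the replicates independent for the CBX7 RNA-seq and for CBX7, dPC and TAF3 Chrom-seq in HEK293T. For the other comparisons p-values measure only the spread between libraries. In bulk libraries, fewer cells carrying an RNA and less RNA per cell cannot be told apart.

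Markers of each labelled line were found: 5 of 5 HEK293T markers, 6 of 7 HCT116 markers, 6 of 6 NIH3T3 markers and 7 of 7 Neuro-2a markers had a count in every library of the line. Detection of the HCT116 markers did not separate HCT116 from HEK293T, where 6 of 7 also had a count in every Chrom-seq library. Their summed CPM (read counts scaled to a common library size with TMM factors) was 2629 to 3320 in HCT116 and 93.15 to 350.8 in HEK293T Chrom-seq. By this sum the HEK293T markers did not separate, at 676.8 to 1471 in HEK293T Chrom-seq and 1774 to 1935 in NIH3T3. The NIH3T3 and Neuro-2a markers were highest in their own line. TAF3 counts include the reader's own transcript where sequence is shared, and its CPM in the mouse lines was 8404 ± 620 (SD, n = 3) with the reader against 128.5 ± 4.96 without it in NIH3T3, and 1734 ± 145 against 183.6 ± 15.1 in Neuro-2a. TAF3 replicate 1 of Neuro-2a stood apart from its group: its chi-square values, per gene, were 32.8 and 37.4 in the pairs with it and 3.24 in the pair without it.

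Members whose span lay wholly inside other genes had no counts. HOX genes nest inside each other's annotated spans, and 13 of 40 human entries lay wholly within genes on the same strand (the short HOXC4 entry by 99.95%). These were HOXA4, HOXA5, HOXA6, HOXB4, HOXB5, HOXB8, HOXB9, HOXC5, HOXC6, HOXC8, HOXC9, HOXD4 and the HOXC4 entry ENSG00000273266.1, and each had 0 counts in all 35 human libraries. The 12 partly covered and the 15 uncovered entries all had counts. In mouse, 8 wholly covered members (Hoxa3, Hoxa4, Hoxa5, Hoxa6, Hoxc6, Hoxc8, Hoxc9 and Hoxd4) were at 0, while 5 of 7 partly covered and 13 of 24 uncovered members had counts.

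The same held over the whole tables. Of 8023 human genes covered wholly on the same strand, 35 (0.436%) had any count, against 55.3% of 9369 genes covered wholly by opposite-strand genes only and 59.5% of 24588 uncovered genes. HOXD8 and HOXD9, which lie 100% within the opposite-strand gene HOXD-AS2, had 2576 and 6074 counts in all. A 0 in the 13 human and 8 mouse covered members cannot be read as a level of their RNA, and the counts of partly covered members come from the unshared stretches of their spans.

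**Figure D1:**
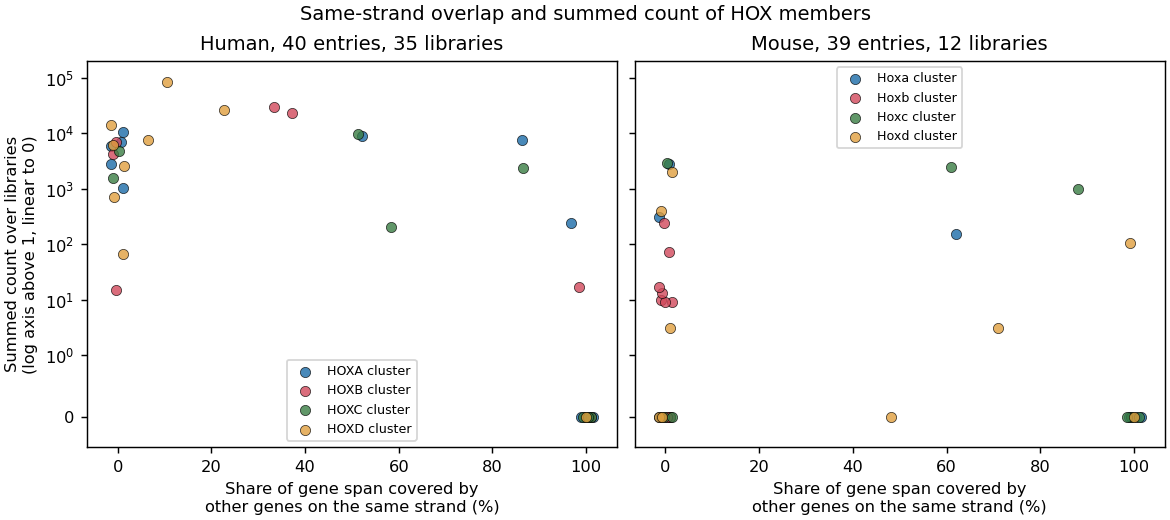
Summed counts of each HOX member over all libraries of its species (vertical axis, log above 1) against the percentage of its span covered by same-strand genes (horizontal axis, points spread slightly sideways), coloured by cluster. All human members with uncovered span have counts, the 13 human and 8 mouse members at full cover sit at 0, and 11 uncovered mouse members are also at 0.

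The leading HOX genes are given for each line, and differences between lines were not tested, since line and experiment cannot be told apart. Levels are compared here per kb of annotated span in libraries without a reader, which lowers members whose span is partly shared. In HEK293T Chrom-seq controls the highest were posterior HOXD genes, which pattern limbs and the caudal body: HOXD13 at 8.26 ± 0.329 CPM per kb (SD, n = 3), HOXD10 at 7.25 ± 0.825 and HOXD9 at 5.30 ± 0.438. HOXD10 and HOXD13 overlapped within their spread. In the HEK293T RNA-seq controls HOXD10 led with 36.1 ± 6.37 CPM per kb, before HOXD11 with 19.9 ± 2.33 and HOXD13 with 14.95 ± 0.381.

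In HCT116 the highest per kb were HOXA and HOXB genes. HOXA9, a regulator of blood progenitors, stood at 4.16 ± 0.087 CPM per kb, HOXA7 at 3.71 ± 0.022 and HOXB7 at 2.11 ± 0.095 (n = 3 control libraries). HEK293T Chrom-seq controls held 4.87 ± 0.092 of HOXA7 and 1.82 ± 0.253 of HOXB7 on the same scale. HOXD8 was at 1.69 ± 0.472 CPM per kb in HCT116, while HOXD13 had 1, 0 and 1 counts and HOXD11 had 1, 0 and 0 counts in the HCT116 controls, which were deeper than those of HEK293T. Of the human members with uncovered span, HOXB6 had no count in HEK293T Chrom-seq, HOXC12 none in HCT116 and HOXB1 none in the RNA-seq table with the CBX7 reader, while all 27 had a count in the ASO table.

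**Figure D2:**
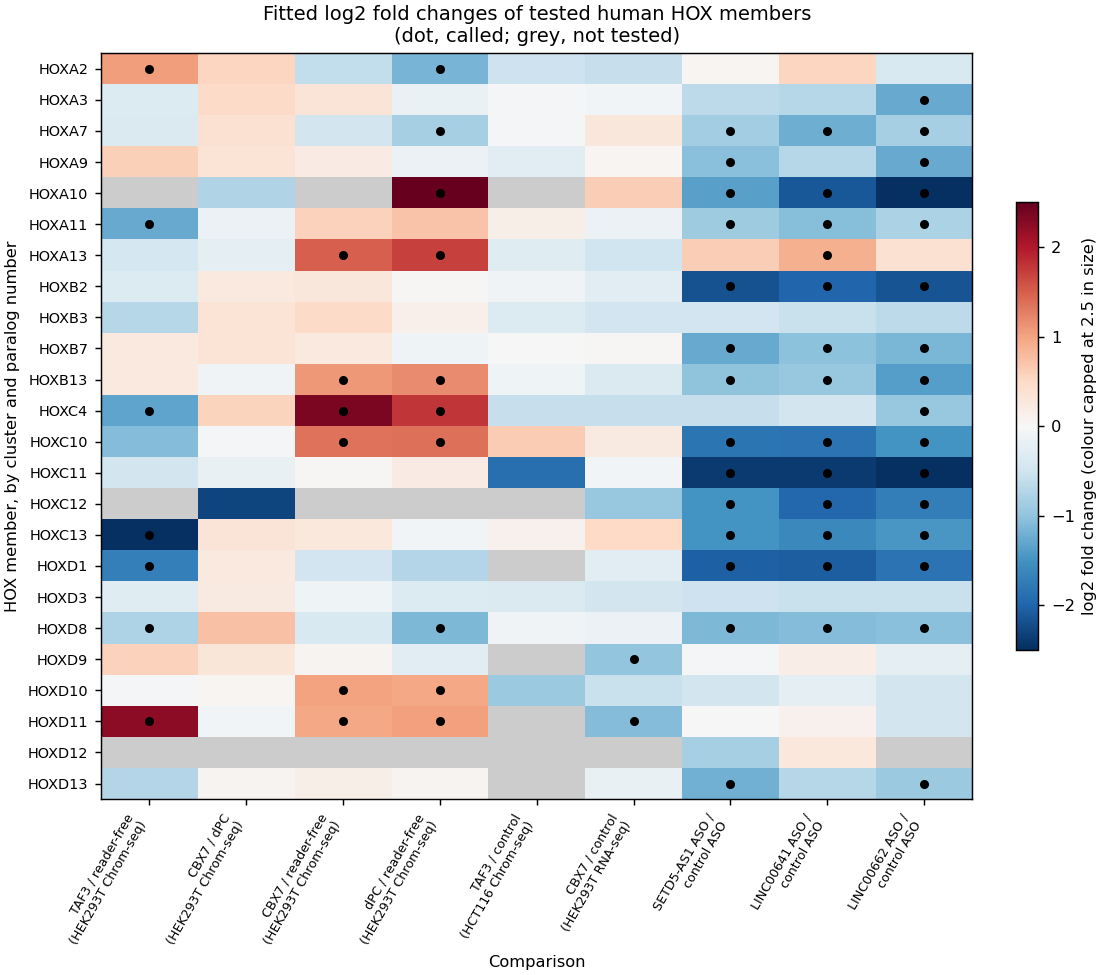
Log2 fold change (colour, capped at 2.5 in size) of 24 human HOX members tested in at least 1 of 9 comparisons, ordered by cluster and paralog number. A dot marks members with adjusted p below 0.05 that changed by 0.75 or more on the log2 scale, and grey marks members with too few counts. The 3 ASO columns share the NC ASO libraries and are mostly blue with HOXA13 as the red row, and the CBX7 and dPC columns against the reader-free control share that control with the TAF3 column.

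With the TAF3 reader in HEK293T, HOXD11 RNA was recovered several times more than in the reader-free control, while most other HOX members were level or lower. Members are called changed in edgeR's quasi-likelihood test when the Benjamini-Hochberg adjusted p over all tested genes is below 0.05 and the change reaches 0.75 or more on the log2 scale, up or down. Of 22 members tested, 2 rose and 6 fell, where 22.1% of all genes rose and 18.5% fell. Their median log2 fold change was -0.40, against 0.01 for all genes. Gene names of the HEK293T TAF3 and reader-free libraries rest on row order, since that table carries no gene IDs, and so does every comparison with the reader-free control.

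HOXD11 (ENSG00000128713.11, chr2:176968944-176974722 on the plus strand of hg19), a posterior gene of limb and kidney development, had 384, 643 and 385 counts with TAF3 and 125, 163 and 161 in the reader-free control. Every TAF3 library lay above every control library although 2 of the 3 were shallower. The log2 fold change was 2.23 (SE 0.099, adjusted p = 3.18e-30), and the levels were 131.5 ± 10.1 and 29.2 ± 2.37 CPM (SD, n = 3). Its neighbour HOXD10 (chr2:176973518-176984670), whose annotated span overlaps the 3′ end of HOXD11 on the same strand, had 201, 382 and 236 counts against 330, 459 and 456, a log2 fold change of -0.03 (SE 0.093, adjusted p = 0.764). HOXD10 libraries of both groups overlapped, while those of HOXD11 did not. Over all genes, 32.6% had every TAF3 library above every control library.

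HOXD11 and HOXD10 are neighbours of which TAF3 raised only HOXD11 past the threshold (the difference between them was not tested). Windows around RefSeq start sites of these genes (250 bases before to 50 after, plus strand of GRCh38.p14) are therefore shown with each CG in capitals. These windows lie farther apart than the hg19 starts of the counted entries, so they are not both at the starts of those entries. The windows are chr2:176107030-176107329 for HOXD11, with 27 CG, and chr2:176116528-176116827 for HOXD10, with 23 CG.
HOXD11: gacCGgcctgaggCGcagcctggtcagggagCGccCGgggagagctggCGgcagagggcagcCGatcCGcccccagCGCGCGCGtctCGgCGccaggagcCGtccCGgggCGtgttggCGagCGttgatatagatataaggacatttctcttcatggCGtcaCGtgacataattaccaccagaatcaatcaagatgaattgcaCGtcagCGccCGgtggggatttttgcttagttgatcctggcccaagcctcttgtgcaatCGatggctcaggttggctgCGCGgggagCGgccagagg
HOXD10: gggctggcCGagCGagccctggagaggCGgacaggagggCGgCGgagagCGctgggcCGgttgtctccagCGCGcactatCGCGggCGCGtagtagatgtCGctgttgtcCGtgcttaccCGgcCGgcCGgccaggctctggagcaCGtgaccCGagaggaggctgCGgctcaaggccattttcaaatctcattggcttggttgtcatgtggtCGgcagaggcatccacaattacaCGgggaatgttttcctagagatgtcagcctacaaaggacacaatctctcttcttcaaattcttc
RefSeq windows were found for 20 of the 39 human symbols, 26 windows in all, with a median of 22.5 CG each against 14 over 34943 windows of all genes. Most were of HOXA and HOXD genes. The HOXB cluster had only HOXB1, and the HOXC cluster only HOXC4 and HOXC5 with the same window. The letters TATAAA, read on both strands, were in 5 of the 26 windows (19.2%) and in 11.6% of all windows, and in neither of the pair shown. A match or its absence describes these letters only.

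HOXA2, the hindbrain and second pharyngeal arch gene, was the other member that rose with TAF3, with 18, 52 and 33 counts against 23, 30 and 20 (log2 fold change 1.05, SE 0.26, adjusted p = 0.000295). The raw counts overlapped, and after scaling the TAF3 libraries lay at 6.65 to 10.6 CPM and the controls at 3.95 to 5.28. With library size alone as the scale, the median of all genes moved to -0.46 in this comparison, HOXA2 was at 0.57 and no longer passed, and 1 member rose and 15 fell. The shares of all genes that rose or fell on that scale are not given here, so these counts describe the members only. The choice of scale thus moved the split between rises and falls, and values here are relative to the median gene.

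Among the 6 that fell, HOXC13, a gene of hair and nail formation, had the largest fall: 6, 12 and 4 counts with TAF3 against 60, 88 and 58, a log2 fold change of -2.64 (SE 0.29, adjusted p = 3.03e-12). HOXC4 (ENSG00000198353.6) had 5, 9 and 12 counts against 32, 37 and 28 and fell by 1.31 (SE 0.34, adjusted p = 0.000557). In both genes all TAF3 libraries were below all controls, as they were in 33.6% of all genes. HOXA11, a limb and uterine gene, fell by 1.26 (SE 0.31, adjusted p = 0.000276), with 6, 18 and 8 counts against 39, 39 and 35. These low counts again did not overlap the controls.

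HOXD1 was counted 3, 2 and 4 times with TAF3 and 11, 18 and 16 times without it, a log2 fold change of -1.70 (SE 0.52, adjusted p = 0.00364). HOXD8 had 12, 36 and 12 counts against 43, 50 and 56, a log2 fold change of -0.76 (SE 0.25, adjusted p = 0.00676). The HOXD8 call sat at the threshold: it was lost without TAF3 replicate 1 (-0.66), TAF3 replicate 3 (-0.59) or control replicate 3 (-0.67) and under edgeR's default filter on low counts (-0.71), and the HOXD1 call without TAF3 replicate 2 (-1.18).

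No HOX member passed between the readers of H3K27me3. CBX7 against dPC called 0 of 24 members, with 1.24% of all genes called, by edgeR's quasi-likelihood test, and DESeq2 also called 0, while 8 members had an unadjusted p under 0.05 in edgeR. Their median log2 fold change was 0.23, against 0.00 for all genes. HOXC4 had the smallest p, with 308, 358 and 312 counts under CBX7 and 230, 233 and 249 under dPC (log2 fold change 0.55, SE 0.11, adjusted p = 0.00767), below the fold required. HOXD11, at 618, 652 and 468 against 623, 700 and 619, differed by -0.07 (SE 0.098, adjusted p = 0.732).

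Against the reader-free control, 6 of 22 members rose with CBX7 and 0 fell, where 17.5% of all genes rose and 13.8% fell. The median of the members was 0.27 against 0.04 for all genes. With dPC, 7 of 23 rose and 3 fell, where 14.8% of all genes rose and 13% fell, and the medians were 0.07 and 0.02. The 7 include HOXA10, which passed the count filter only through the dPC libraries. Both comparisons use the same 3 control libraries, and the titles give that control to TAF3, so reader and experiment cannot be told apart here. With library size alone the medians of all genes moved to 0.45 and 0.39, and 9 rose and 0 fell with CBX7 and 8 rose and 2 fell with dPC. The shares of all genes called on that scale are not given here, so these counts cannot be set beside them.

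HOXC4 had the largest rise with CBX7, from 32, 37 and 28 counts to 308, 358 and 312, a log2 fold change of 2.35 (SE 0.15, adjusted p = 3.50e-18). With dPC its log2 fold change was 1.79 (SE 0.16, adjusted p = 5.54e-09). Its levels were 6.33 ± 0.727 CPM in the control, 33.0 ± 1.53 with CBX7, 22.6 ± 1.54 with dPC and 2.49 ± 1.13 with TAF3 (SD, n = 3), so the control lay between the readers of the opposing marks. Of the HOXC4 span 52.65% is shared with other genes, and only the rest is counted.

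HOXD10 and HOXD11 both rose with the H3K27me3 readers. HOXD10 had 1792, 1751 and 1415 counts with CBX7 and 1588, 1947 and 1599 with dPC, against 330, 459 and 456. Its log2 fold changes were 1.01 (SE 0.083, adjusted p = 1.36e-14) and 0.96 (SE 0.10, adjusted p = 7.99e-08). All reader libraries were above all controls after scaling, as they were in 32.8% of all genes with CBX7 and 30.1% with dPC. HOXD11 changed by 0.97 (SE 0.10, adjusted p = 4.79e-11) and 1.03 (SE 0.10, adjusted p = 3.53e-08), reaching 58.3 ± 6.21 and 61.5 ± 1.72 CPM, below its level with TAF3.

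The other 3 members called higher with both readers were posterior genes of the other clusters. HOXA13, a gene of distal limb and genital development, had 118, 151 and 90 counts with CBX7 and 152, 194 and 100 with dPC, against 29, 19 and 16 (log2 fold changes 1.49, SE 0.23, adjusted p = 2.20e-07, and 1.70, SE 0.26, adjusted p = 9.38e-06). HOXB13, a prostate gene, had 132, 126 and 99 and 129, 137 and 140 counts against 18, 38 and 29 (1.09, SE 0.20, adjusted p = 8.61e-06, and 1.18, SE 0.20, adjusted p = 2.78e-05). HOXC10 had 43, 49 and 40 and 41, 62 and 41 counts against 4, 9 and 13 (1.36, SE 0.34, adjusted p = 0.000622, and 1.38, SE 0.34, adjusted p = 0.00181). No control library of these 3 genes reached a reader library, as in 32.8% (CBX7) and 30.1% (dPC) of all genes.

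With dPC, HOXA10 had 8, 14 and 9 counts where the control had 0 in each library. By total counts alone this is at least 6.31-fold higher, taking 3 counts over the control group as the floor. The TMM factors were larger for dPC than for the control, so the bound would be lower on that scale. HOXA10 passed the count filter only through the dPC libraries, so its call is a description. Its span is 97.4% shared. HOXA2 fell by 1.16 with dPC (27, 24 and 18 counts against 23, 30 and 20, SE 0.29, adjusted p = 0.00186). HOXD8 fell by 1.12 (48, 51 and 46 counts against 43, 50 and 56, SE 0.20, adjusted p = 6.56e-05). HOXA7 fell by 0.84 (132, 138 and 104 counts against 93, 119 and 104, SE 0.14, adjusted p = 3.98e-05). These counts were alike in number in libraries that were deeper with dPC, so the falls are in share of the library, and HOXA7 was no longer called with library size alone (-0.47) or without dPC replicate 3 (-0.72).

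**Figure D3:**
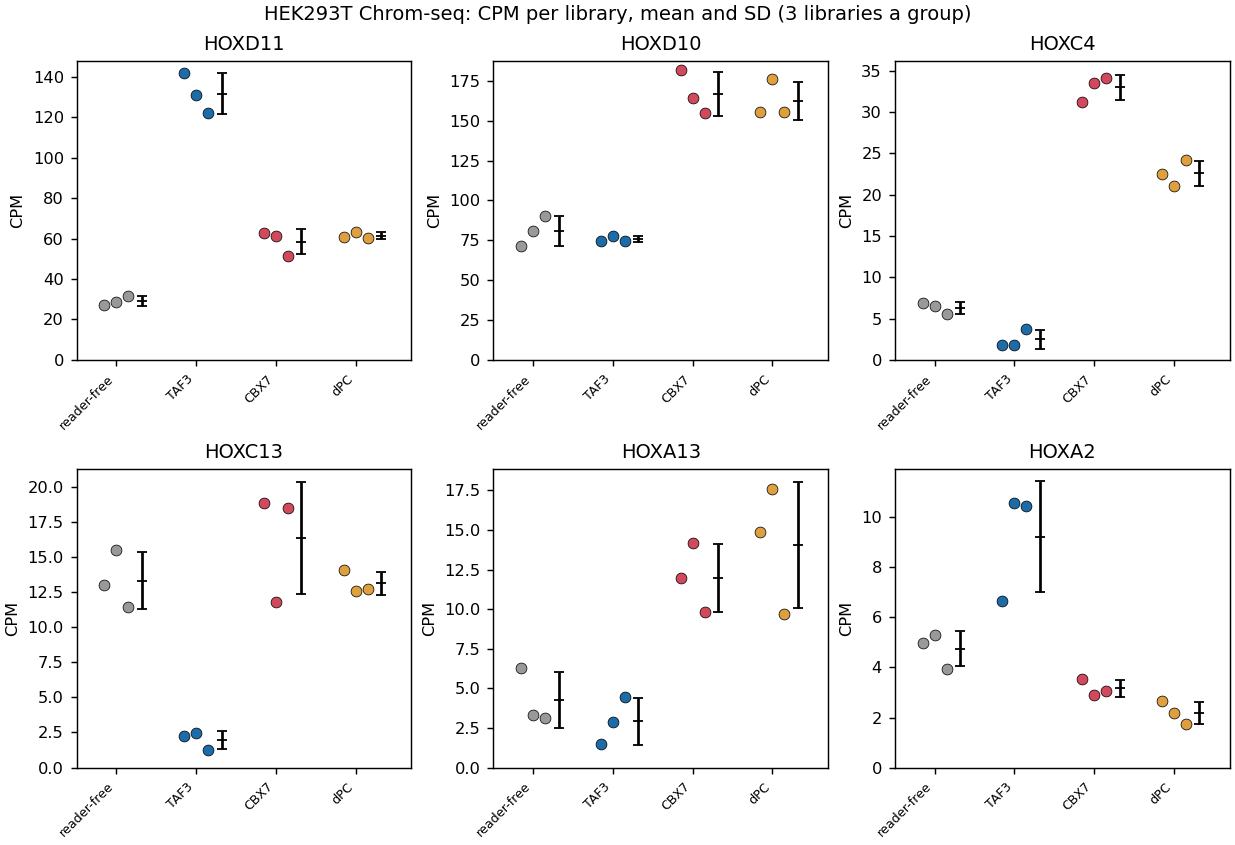
CPM of 6 HOX members in each HEK293T Chrom-seq library (points), with the mean and SD of the 3 libraries of a group (bar), for the reader-free control and the TAF3, CBX7 and dPC readers. HOXD11 is highest with TAF3 (131.5 CPM on average), HOXD10 and HOXC4 are highest with CBX7 and dPC, and HOXC13 is low with TAF3 (1.98 CPM).

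The noncoding neighbours and regulators of HOX genes were counted by list. Of 15 HOX cluster lncRNAs tested, 9 rose with CBX7 (median 1.08) and 6 with dPC (median 0.65), among them HOTAIR (1.45 and 1.41), a HOXC transcript, HOTAIRM1 (1.48 and 1.08) and HOXA11-AS (1.60 and 1.45), and 0 fell in edgeR. With TAF3, 1 of 15 rose, HOXC-AS3 (1.84), and 0 fell. Of 13 PRC1 genes, 7 fell with TAF3, including BMI1 (-1.48) and PHC1 (-1.28), and 1 rose, PCGF2 (0.92). Of 11 PRC2 genes, 3 fell with TAF3: EZH2 (-1.37), PHF19 (-1.37) and SUZ12 (-1.10). Of 9 TALE cofactors, which bind DNA with HOX proteins, 2 rose with TAF3, PKNOX2 (1.62) and MEIS2 (1.09), and PBX2 (-1.83) fell. Over all genes 22.1% rose and 18.5% fell with TAF3, and the TALE counts are close to those shares. With CBX7 and dPC the shares of all genes that rose were 17.5% and 14.8%.

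Outside HEK293T, the TAF3 reader called no HOX member. In HCT116 0 of 18 members were called, with 6.62% of all genes called, by edgeR, and DESeq2 called 0, while 3 had an unadjusted p under 0.05. HOXA9, at 548, 592 and 560 control counts and 455, 425 and 393 with TAF3, had a log2 fold change of -0.29 (SE 0.083, adjusted p = 0.00452), below the fold required. HOXC11 had 13, 7 and 1 counts against 2, 2 and 1 and was called (-2.40, edgeR adjusted p = 0.0262) once control replicate 3 was left out. The members' median was -0.17, against -0.01 for all genes.

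In NIH3T3, 0 of 10 members were called, with 11.1% of all genes called, by edgeR, and DESeq2 called 0, while 2 had an unadjusted p under 0.05. Hoxa7, at 531, 498 and 543 control counts and 506, 430 and 328 with TAF3, had a log2 fold change of -0.34 (SE 0.13, adjusted p = 0.0721). Hoxd3, with 6, 25 and 42 counts against 8, 10 and 15, was called (-1.66, edgeR adjusted p = 0.0404) when control replicate 1 was left out. In Neuro-2a, 0 of 3 members were called, with 1.03% of all genes called, 0 had an unadjusted p under 0.05 in edgeR and DESeq2 called 0. Leaving out TAF3 replicate 1, the library that stood apart, also gave 0.

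Only Hoxc4 and Hoxc5 had counts in both mouse lines, so the difference of the TAF3 responses could be estimated for these 2 alone. It was 0.15 (SE 0.21, adjusted p = 0.850) for Hoxc4 and -0.03 (SE 0.27, adjusted p = 0.9999) for Hoxc5 on the log2 scale. The interaction called 0 of 11 members, with 3.05% of all genes called, in edgeR and in DESeq2, and 0 had an unadjusted p under 0.05 in edgeR.

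The mouse lines held different Hox genes. NIH3T3 fibroblasts had counts for 16 of 39 members and Neuro-2a neuroblastoma cells for 4. In control libraries, 3 of 11 tested members were higher in Neuro-2a and 8 lower, where 25.2% of all genes were higher and 26.5% lower. Of these members 9 had no count in the controls of one line, so they passed the count filter only through the other line, and the tally is a description. Cell line and experiment cannot be told apart in this comparison.

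The 3 higher members all belong to the Hoxc cluster, whose middle and posterior genes mark brachial to lumbar levels of the spinal cord. Hoxc4 had 428, 406 and 398 counts in Neuro-2a and 154, 123 and 155 in NIH3T3 (log2 fold change 1.92, SE 0.13, adjusted p = 2.24e-12). Hoxc5 had 348, 398 and 368 against 65, 84 and 72 (2.74, SE 0.16, adjusted p = 2.03e-13). Hoxc10 had 184, 183 and 162 counts against 0 in every NIH3T3 control. This is at least 249-fold higher by total counts alone, with 3 counts over the group as the floor. Of the Hoxc10 span 87.3% is shared with Hoxc5, and of the Hoxc5 span 60.85% with other genes, including the covered Hoxc6, Hoxc8 and Hoxc9.

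The 8 lower members came from the Hoxa, Hoxb and Hoxd clusters and had 0 counts in every Neuro-2a library. Hoxa7 had 531, 498 and 543 counts in NIH3T3 controls, at least 371-fold above Neuro-2a with 3 counts over the group as the floor, and Hoxd8 had 368, 307 and 360, at least 244-fold above. Hoxd9 had 73, 56 and 77 counts (at least 48.6-fold) and Hoxb9 had 28, 56 and 47 (at least 30.9-fold). Hoxa2, Hoxd3 and Hoxb6 had bounds of 21, 17.2 and 12.5, and their counts ranged from 6 to 42 per library. All these bounds are scaled by total counts alone, without TMM factors.

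Per kb of span, NIH3T3 controls were led by Hoxd8 at 6.30 ± 0.365 CPM per kb, Hoxa7 at 4.32 ± 0.147 and Hoxd9 at 1.67 ± 0.225 (SD, n = 3). Neuro-2a controls were led by Hoxc10 at 2.98 ± 0.243, Hoxc4 at 1.98 ± 0.116 and Hoxc5 at 0.644 ± 0.096. No neighbours in either order overlapped within their SD. Of 12 PRC1 genes tested, 6 were higher in Neuro-2a and 0 lower in edgeR, with Cbx7 (5.38) and Cbx2 (2.23) the farthest apart.

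**Figure D4:**
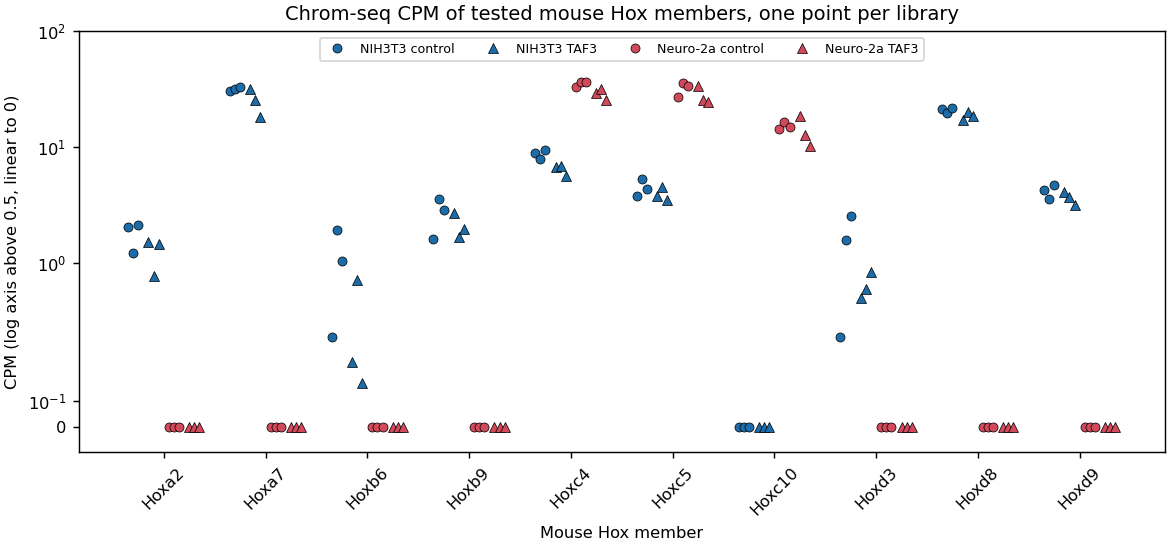
Chrom-seq CPM (vertical axis, log above 0.5) of 10 of the 11 tested mouse Hox members in each NIH3T3 and Neuro-2a library, with circles for control and triangles for TAF3. The Neuro-2a points lie above the NIH3T3 points for Hoxc4, Hoxc5 and Hoxc10 and at 0 for the other 7 members shown, and circles and triangles of a line lie close together for the well-counted members.

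In RNA-seq, HEK293T cells with the CBX7 reader had less HOXD11 and HOXD9 RNA than untreated cells. The CBX7 row stood at 41.7 ± 1.98 CPM against 16.5 ± 1.98 (SD, n = 3), and in Chrom-seq at 10.45 ± 0.887 with CBX7, 8.64 ± 2.51 with dPC and 4.51 ± 0.56 in the reader-free control, and how much of it is the mouse reader was not tested. Of 24 members, 2 fell and 0 rose, where 3.48% of all genes fell and 4.17% rose, and the median of the members was -0.22 against -0.01. HOXD11 had 514, 576 and 506 counts with CBX7 and 1470, 1411 and 1880 in the control (log2 fold change -1.09, SE 0.10, adjusted p = 3.66e-06). HOXD9 had 164, 155 and 153 against 421, 366 and 530 (-0.99, SE 0.14, adjusted p = 0.00011). No library of one group reached the other in either gene, which held in the same direction for 22.6% of all genes.

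Their neighbour HOXD10 had 2419, 2799 and 2824 counts against 5301, 4551 and 6815, a log2 fold change of -0.56 (SE 0.10, adjusted p = 0.000865), under the fold required. HOXD13, at 352, 439 and 403 against 556, 628 and 706, stood at -0.18 (SE 0.083, adjusted p = 0.123). In Chrom-seq the reader-free control had less HOXD11 and HOXD10 than CBX7 libraries, and in RNA-seq the control had more. These are different assays and tables with separate controls, and the difference between them was not tested. Of 15 HOX cluster lncRNAs, 1 rose in RNA-seq, HOXA-AS4 (1.01), and 0 fell in edgeR.

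The ASOs are short DNA-like oligomers that direct RNase H to a complementary RNA. The oligos listed for the study include the control and several per target, of which the control and the first per target are printed to show what kind of oligo the HOX comparisons below used. Which of a target's oligos went into the libraries is not given in the sources used here.
ASOXNC23: ttctccgaacgtgtcacgtt
SETD5-AS1-ASO-1: atcaatgaggatgtcatcac
LINC00641-ASO-1: gatgtggagcaacagaaatg
LINC00662-ASO-1: tgtagtctcttatctgcacc
The control had 0 exact matches in hg19. The target of SETD5-AS1-ASO-1 lies at chr3:9432018-9432037 in an exon of SETD5-AS1 (THUMPD3-AS1 in the newer annotation), that of LINC00641-ASO-1 at chr14:21668966-21668985 in an exon of LINC00641 and that of LINC00662-ASO-1 at chr19:28284662-28284681 in an exon of LINC00662, all on the minus strand. LINC00641-ASO-1 had 2 exact genome matches, the other 2 had 1 each. Of the oligos not printed, LINC00662-ASO-3 had 112 exact matches and LINC00662-ASO-2 had 0, and no listed oligo matched exactly within a HOX member.

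Each target was reduced in its own group. SETD5-AS1 had 50 to 57 counts with its ASO and 596 to 682 with the NC ASO (4.37 ± 0.392 against 51.3 ± 0.499 CPM, SD, n = 3). LINC00641 had 12 and 27 counts against 443 to 556 (1.44 ± 0.724 CPM, n = 2, against 39.5 ± 2.18). LINC00662 had 18 to 30 counts against 148 to 165 (1.60 ± 0.379 against 12.9 ± 0.921 CPM, n = 3).

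Most HOX members were lower with each of the 3 ASOs than with the NC ASO. With the SETD5-AS1 ASO, 15 of 25 members fell and 0 rose, where 11.5% of all genes fell and 12.9% rose. With the LINC00641 ASO (2 libraries), 13 of 25 fell and 1 rose, where 11.5% of all genes fell and 11% rose. With the LINC00662 ASO, 17 of 24 fell and 0 rose, where 13.3% of all genes fell and 11.6% rose. The members' medians were -1.01, -0.95 and -1.09, against 0.03, 0.00 and 0.00 for all genes. The 3 comparisons share the NC ASO libraries, so they are not independent.

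The falls spanned all 4 clusters and, within the HOXC cluster, took in HOXC10 to HOXC13. HOXC11 had 238, 252 and 207 counts with the NC ASO, 43, 46 and 51 with that against SETD5-AS1, 49 and 51 with that against LINC00641 and 28, 46 and 33 with that against LINC00662. Its log2 fold changes were -2.40 (SE 0.15, adjusted p = 6.68e-10), -2.39 (SE 0.17, adjusted p = 5.93e-10) and -2.93 (SE 0.17, adjusted p = 1.78e-13). HOXC10 had 290, 250 and 188 counts with the NC ASO and 67 to 115 with the others, and changed by -1.83, -1.84 and -1.503. The NC ASO libraries were the high ones in each of these genes. HOXC12, at 30, 20 and 28 NC ASO counts and 4 to 14 in the others, changed by -1.498, -1.96 and -1.74, and HOXC13, at 463, 340 and 361 counts and 126 to 207 in the others, by -1.49, -1.61 and -1.46.

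HOXB2, a hindbrain gene, had 498, 384 and 461 counts with the NC ASO, 108, 107 and 100 with the ASO to SETD5-AS1, 127 and 129 with that to LINC00641 and 136, 107 and 108 with that to LINC00662. Its log2 fold changes were -2.17 (SE 0.12, adjusted p = 1.61e-10), -1.98 (SE 0.13, adjusted p = 2.39e-10) and -2.16 (SE 0.12, adjusted p = 4.52e-14). HOXD1 had 65, 80 and 64 NC ASO counts and 15 to 28 in the others, with changes of -2.04 (SE 0.25, adjusted p = 1.83e-06), -2.05 (SE 0.28, adjusted p = 3.50e-06) and -1.85 (SE 0.25, adjusted p = 4.36e-07). HOXA10, a uterine and blood progenitor gene counted over 0.248 kb of unshared span, had 27, 28 and 21 NC ASO counts, and 10, 10 and 11, 5 and 8, and 2, 4 and 4 in the others. It changed by -1.37 (SE 0.35, adjusted p = 0.00294), -2.12 (SE 0.46, adjusted p = 0.00062) and -3.10 (SE 0.47, adjusted p = 3.14e-06). No targeted-ASO library reached an NC ASO library in these 3 genes. Libraries of the SETD5-AS1, LINC00641 and LINC00662 ASOs lay wholly below the NC ASO in 29.2%, 32.3% and 29.8% of all genes. They lay wholly above it in 30.1%, 33.1% and 30.2%.

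HOXA7, HOXA11, HOXB7, HOXB13 and HOXD8 were also called lower with all 3 ASOs, and lay between -0.80 and -1.38. Some of these were near the fold required: HOXA7 was no longer called without SETD5-AS1 ASO replicate 2 (-0.74) or LINC00662 ASO replicate 3 (-0.75), and HOXA11 with the LINC00662 ASO was not called without its replicate 1 (-0.75) or NC ASO replicate 2 (-0.75). With library size alone, HOXA7 (-0.73) and HOXA11 (-0.75) were not called with the SETD5-AS1 ASO, whose median of all genes moved to 0.17.

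HOXA13 went the other way. It had 408, 377 and 356 counts with the NC ASO, 653, 670 and 530 when SETD5-AS1 was targeted, 808 and 778 for LINC00641 and 587, 608 and 540 for LINC00662. All targeted libraries were above the NC ASO ones, and the log2 fold changes were 0.62 (SE 0.098, adjusted p = 4.02e-05), 0.88 (SE 0.094, adjusted p = 1.64e-07) and 0.38 (SE 0.085, adjusted p = 0.000469), of which the second passed the fold required. HOXD11, picked here after its values were seen, had 1361, 1238 and 1221 NC ASO counts and changed by 0.00 (SE 0.085), 0.11 (SE 0.081) and -0.46 (SE 0.078). HOXD10 changed by -0.46, -0.25 and -0.47 and HOXD9 by -0.05, 0.16 and -0.25, none called. Elsewhere in the HOXD cluster HOXD8 and HOXD1 were called with all 3 ASOs and HOXD13 with the SETD5-AS1 (-1.20) and LINC00662 (-0.93) ASOs, while HOXD3 (-0.51, -0.55 and -0.55) was called with none and HOXD12, tested with the SETD5-AS1 and LINC00641 ASOs only, with neither.

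The level of the NC ASO libraries moved with this result. Beside the RNA-seq control libraries that carry no ASO in their label, which come from a separately scaled table, 18 of 25 members had a higher mean CPM with the NC ASO, and 15 (60%) were over 1.5-fold higher (0.1 CPM added), against 21.8% of 18519 genes. The median log2 ratio was 0.73 for the members and -0.05 for all genes. HOXC11 had 32, 64 and 50 counts in those controls, or 3.48 ± 0.939 CPM, against 18.9 ± 1.90 with the NC ASO, 3.75 ± 0.296 with the SETD5-AS1 ASO and 2.499 ± 0.662 with the LINC00662 ASO (SD, n = 3). HOXB2 stood at 11.7 ± 1.25 CPM in those controls, 36.4 ± 3.95 with the NC ASO and 8.45 ± 0.552 with the SETD5-AS1 ASO. HOXA13 was at 45.8 ± 7.13 CPM there, above the 30.9 ± 0.611 CPM with the NC ASO. The part of the NC ASO in the falls was not tested, because the 2 tables share no library.

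**Figure D5:**
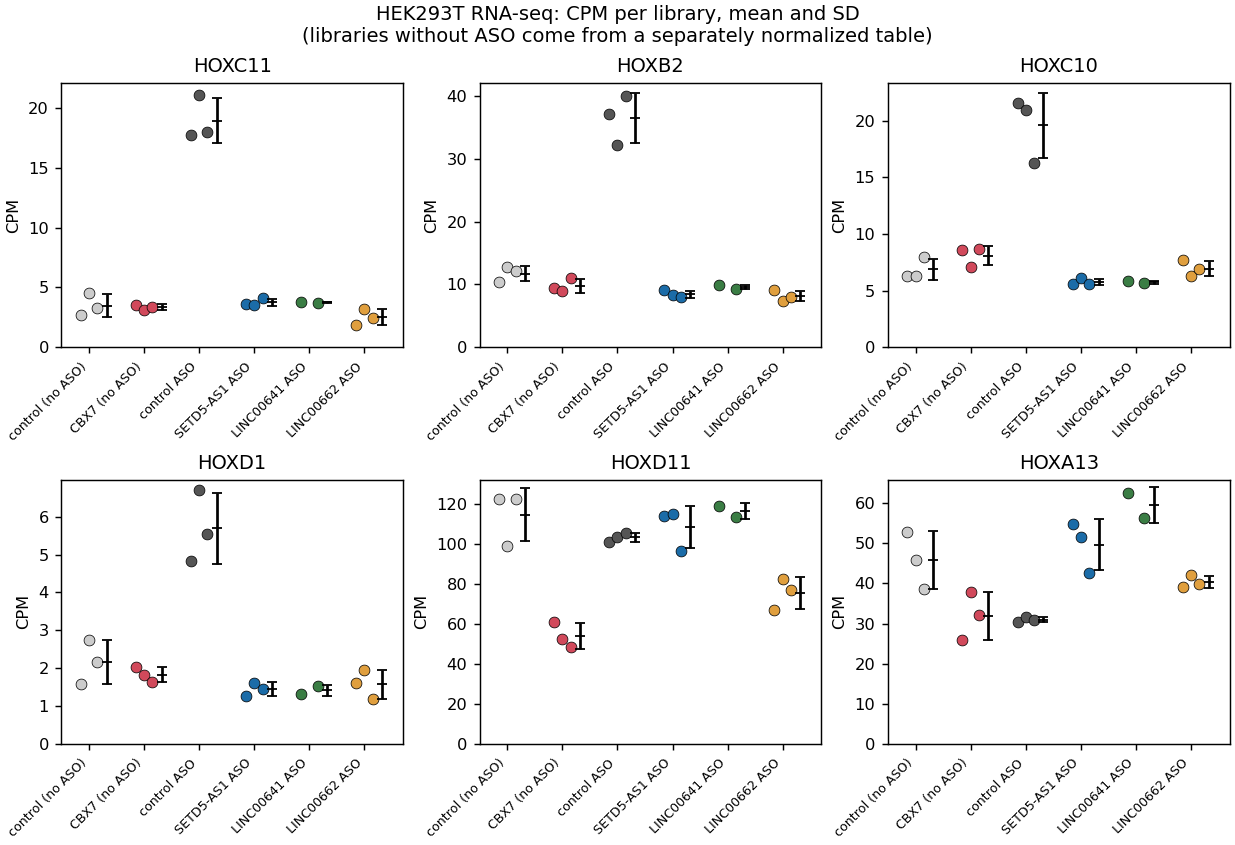
CPM of 6 HOX members in each HEK293T RNA-seq library (points), with the mean and SD of a group (bar), in the control and CBX7 groups without an ASO and in the NC ASO and 3 targeted ASO groups. The NC ASO libraries are the highest group for HOXC11, HOXB2, HOXC10 and HOXD1, where the targeted ASO libraries and those without an ASO are low, and HOXD11 is lowest with CBX7.

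Compared directly, which leaves out the NC ASO libraries, few HOX members passed between the targeted ASOs. The LINC00641 against the SETD5-AS1 ASO called 0 of 25 members, with 1.72% of all genes called, by edgeR, DESeq2 called 0, and 2 had an unadjusted p under 0.05 in edgeR. The LINC00662 against the SETD5-AS1 ASO called 1 of 24 lower and 0 higher, where 8.57% of all genes were lower and 2.5% higher. This was HOXA10 (2, 4 and 4 counts against 10, 10 and 11, log2 fold change -1.79, SE 0.56, adjusted p = 0.0212), and DESeq2 (-1.82), and edgeR without LINC00662 ASO replicate 1 (-1.51), did not call it. Without LINC00662 ASO replicate 2, HOXC11 was called as well (-0.80).

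The LINC00662 against the LINC00641 ASO called 1 of 25 lower and 0 higher, where 6.15% of all genes were lower and 2.25% higher. This was HOXA2, with 29, 36 and 22 counts against 52 and 54 (-0.97, SE 0.27, adjusted p = 0.0142), and the call was lost without LINC00641 ASO replicate 2 (-0.95) or replicate 3 (-0.99) or LINC00662 ASO replicate 3 (-0.84). HOXD11 fell short of the fold in this comparison, at -0.62 (SE 0.083, adjusted p = 1.15e-05). For HOXC11 the differences from the SETD5-AS1 ASO were -0.01 (SE 0.23) with the LINC00641 ASO and -0.58 (SE 0.25, adjusted p = 0.0817) with the LINC00662 ASO.

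HOX cluster lncRNAs were lower with the ASOs too: 6 of 15 fell for SETD5-AS1, 6 for LINC00641 and 9 for LINC00662, at medians of -0.75, -0.74 and -1.14, where 11.5%, 11.5% and 13.3% of all genes fell and 12.9%, 11% and 11.6% rose. The counts of the lists that follow are to be read beside those shares, and several are close to them. HOXC-AS3 changed by -1.79, -1.15 and -1.49 and HOXA-AS2 by -0.87, -0.88 and -1.19, and 1 rose with the SETD5-AS1 ASO, HOTTIP (1.07), which lies beside HOXA13. Of 12 genes flanking the clusters, 2 fell with each ASO, the even-skipped homologs EVX2 (-2.20, -1.91 and -1.59) and EVX1, which went from 1.18 CPM with the NC ASO to 0.078 with the SETD5-AS1 ASO, 0 in both LINC00641 ASO libraries and 0.088 with the LINC00662 ASO, while 3, 3 and 2 rose, SNX10 among them (1.18, 1.26 and 1.51). Of 13 PRC1 genes 3, 3 and 2 fell, of which CBX8 (-1.05, -0.85 and -0.95) fell with all 3 ASOs, and 1, 0 and 0 rose in edgeR. Of 9 TALE cofactors, 2, 1 and 1 rose and 1, 1 and 2 fell, PKNOX1 among those that fell (-1.05, -1.34 and -1.16). Of 11 PRC2 genes, 1 fell with each ASO, PHF1 (-1.14, -0.81 and -0.76), and 1 rose with the LINC00641 ASO, EZH1 (0.78). Of 11 trithorax genes and H3K27 demethylases, 1, 1 and 2 rose, WDR5 in each (0.98, 0.93 and 1.27), and 1 fell with the LINC00662 ASO, KDM6A (-1.39). Of 6 upstream CDX and retinoid genes, 3, 4 and 2 fell, CDX2 in each (-1.01, -0.78 and -0.95), and 1 rose with the SETD5-AS1 and the LINC00641 ASO, RARB (1.30 and 1.09). These lists share the NC ASO libraries with the members.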

How the data were processed

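The members and gene lists were chosen with earlier results of these data known. Per the labels and the study's methods, the authors trimmed reads with fastp 0.23.1, aligned poly(A)+ reads to hg19 or mm10 with HISAT2 2.1.0 and counted them per gene with featureCounts 2.0.1. FastQC 0.11.8 and DESeq2 1.34.0 are also in the submitters' processing notes. The strand setting of the counting is not given in the sources used here. The deposited values are raw counts per gene, and reads, not molecules, were counted, so PCR copies are included as far as stated. A HEK293T Chrom-seq file held a second table (TAF3 and its control) without gene IDs, which was paired with the first by row order: counts of the 2 tables correlated across genes at a Spearman rho of 0.919 in register, against 0.195 and 0.192 with rows shifted by 1. Genes are not independent replicates. A total of 6 columns matched no sample label and were not used.

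Groups came from the labels. Genes with a summed count above 3 per library were tested with edgeR 4.0.16 (R 4.3.3; TMM scaling, quasi-likelihood test, two-sided, Benjamini-Hochberg adjustment over all tested genes), each comparison fitted on its own groups. Calls needed an adjusted p below 0.05 and a change of 0.75 or more, up or down, on the log2 scale. Alternatives were DESeq2 1.42.0, library size scaling, other filters, a replicate block, genes without same-strand overlap, and leaving out each library. The code was tested on simulated data. Every called member is named, or, beyond 12 in a comparison, the 6 largest rises and falls with a mean of at least 10 counts, with the top 3 control levels per kb. HOXD9, HOXD10, HOXD11 and HOXA13 where not called, PHC1 among the PRC1 genes, and other members just under a threshold, were named after their values were seen. The 7 gene lists were HOX cluster lncRNAs, flanking genes, TALE cofactors, PRC1, PRC2, trithorax and H3K27 demethylases, and upstream CDX and retinoid genes. Total counts were 3941942 to 8967719 in HEK293T Chrom-seq, 14213105 to 17445889 in HCT116, 15797217 to 17558305 in NIH3T3, 10012172 to 13317137 in Neuro-2a and 8258859 to 15330874 in RNA-seq, which limits members with few counts, and the intervals cover counting and library spread only. Promoter windows came from RefSeq (GRCh38.p14), and oligo positions from exact matches to hg19. Some members and listed genes are counted but not reported by name here.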

Additional observations from a re-analysis of the deposited data

How the results depend on the processing

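No named HOX value reversed its direction under the alternatives run. Over 85 named member values and 1074 alternatives, 1055 kept their side of the threshold and 19, from 10 pairs of member and comparison over 6 members, did not. Of 221 counts of called members under alternatives, 205 stayed within 1.5 times the value reported. With library size alone, 16 members were called with TAF3 in HEK293T and 1 between CBX7 and dPC. The shares of all genes called under the alternatives are not given here, so counts under alternatives describe the members only. Among genes with no same-strand overlap only, where fewer members could be tested, 2 were called with CBX7 and 5 with dPC against the reader-free control, 1 in CBX7 RNA-seq, 10 with the LINC00662 ASO, 0 between the LINC00662 and SETD5-AS1 ASOs and 7 between the mouse lines. DESeq2 called 0 between the LINC00662 and SETD5-AS1 ASOs, and the cause was not tested. Leaving out 1 library at a time gave 0 to 1 with TAF3 in HCT116, 0 to 1 in NIH3T3, 0 to 2 for the LINC00662 against the SETD5-AS1 ASO and 0 to 1 for the LINC00662 against the LINC00641 ASO. Replicate numbers did not pair the libraries: deviations of same-numbered libraries correlated at -0.095 to 0.224, and a replicate block kept the count of called members within 1.5 times in all 16 comparisons. With the block, 8 members were called with TAF3 in HEK293T, 6 with CBX7 and 10 with dPC against the reader-free control, 15, 15 and 17 with the SETD5-AS1, LINC00641 and LINC00662 ASOs, and 11 between the mouse lines. Members with few counts, such as HOXA10 and HOXD1, are limited by depth.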
